A study of Mus musculus with 6 samples.

Results

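Collagens and the structural proteins of the extracellular matrix form the scaffold between cells, and the 42 genes described here were picked by name from those that encode this scaffold or the enzymes that fold and cross-link it. Of these, 41 were among the 13823 genes of the table, and all 41 reached the expression filter of at least 1 FPKM (reads scaled by transcript length and by the size of the library) in at least 3 libraries, which left 12257 genes to test. The elastin gene Eln was not among the listed genes. RNA was sequenced from breast tissue of 6 Balb/c mice, 3 given ITSN (isotoosendanin, a limonoid of Melia plants) into the stomach at 1 mg/kg per day and 3 given DMSO (dimethyl sulfoxide, the vehicle). The series title places the study in triple-negative breast cancer and in the epithelial-mesenchymal transition driven by TGF-β. The labels name the tissue only as breast, give no age or length of treatment, and do not say whether a tumour was sampled or how it was raised. They state male mice, whereas Xist, the RNA of the inactive X chromosome, was read at 25.1 to 28.5 FPKM in ITSN and 20.1 to 29.3 FPKM in DMSO.

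The interstitial matrix is built mainly by fibroblasts. They secrete fibrillar collagens I, III and V, which are hydroxylated and folded in the endoplasmic reticulum, trimmed outside the cell, and cross-linked by lysyl oxidases. Basement membranes are thinner sheets under epithelium and around vessels and muscle, made of laminins and collagen IV, tied together by nidogens and perlecan, and epithelial and endothelial cells make much of them. In tumours TGF-β is known to raise the output of fibrillar collagen, periostin, tenascin C and lysyl oxidases by fibroblasts.

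The matrix genes followed the libraries more than the treatment. In DMSO 1 17 of the 41 stood at under 0.5 of their mean in DMSO 2 and 3, whereas 7.95% of all tested genes did. Those low in DMSO 1 were 5 of 6 fibrillar collagen chains, 3 of 6 other collagens, 3 of 3 small proteoglycans, 3 of 5 matricellular proteins, 2 of 4 lysyl oxidases and Fbn1, but 0 of 11 basement membrane genes and 0 of the 4 hydroxylases and chaperone. ITSN 2 gave the lowest of the 3 ITSN values for 35 of the 41, against 47.3% of all tested genes. DMSO 2 lay between DMSO 1 and DMSO 3 for 39 of the 41, and for 73.2% of all tested genes. ITSN 1 lay between ITSN 2 and ITSN 3 for 36 of the 41, and for 63.7% of all. In these bulk samples fewer cells of a type and less RNA per cell cannot be told apart.

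DMSO 1 also stood apart as a library. It scored 43.2 on the first principal component, against -20.1 to 4.63 in the other 5 libraries, and mitochondrially encoded transcripts took 32.3% of its FPKM sum, against 13.5% to 15.6% in ITSN and 17.5% and 22.4% in DMSO 3 and 2. When FPKM were rescaled without these transcripts, 33 of the 41 matrix genes had a log2 change above 0, against 52.6% of all tested genes. Limma then called 0.645% of all tested genes and 1 matrix gene, Hspg2 (log2 change 0.66, adjusted p = 0.0499). The 41 genes together took 0.570%, 0.467% and 0.623% of the FPKM sum in ITSN 1, 2 and 3, and 0.331%, 0.445% and 0.515% in DMSO 1, 2 and 3. The main counts are therefore given with all 6 libraries and without DMSO 1, where 3 ITSN stand against 2 DMSO libraries. For some single genes only 1 of these fits, or only the FPKM, is given.

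**Figure D1:**
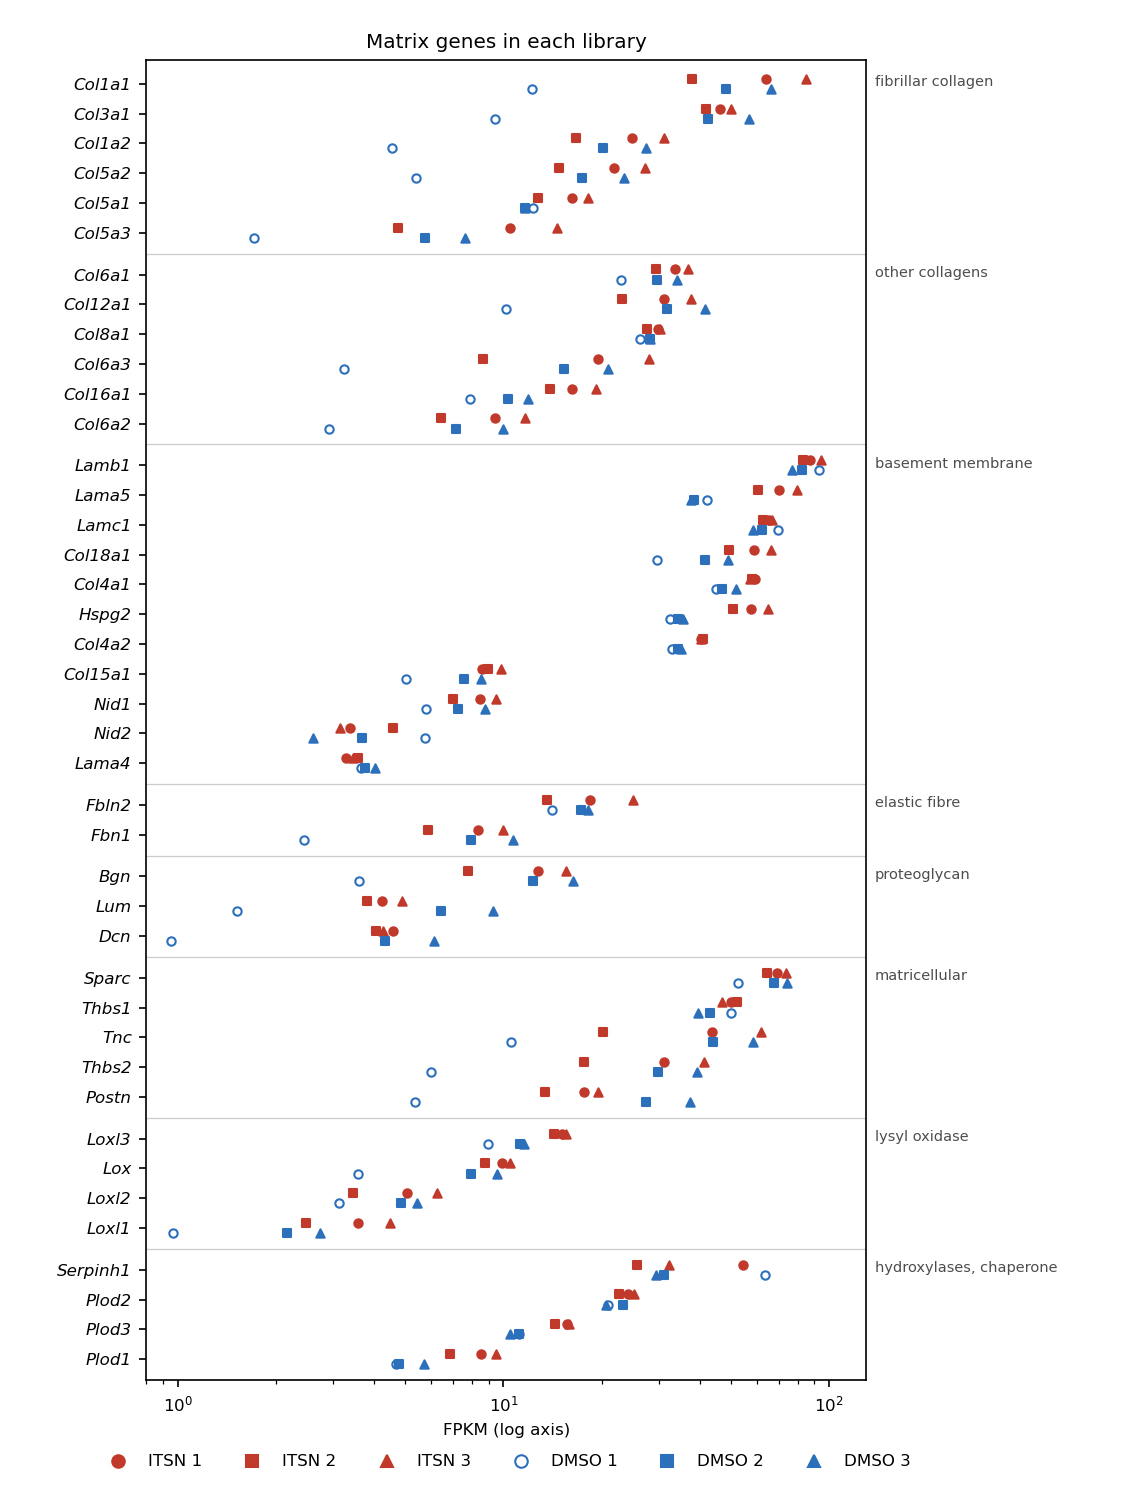
FPKM (log axis) of the 41 matrix genes in the 3 ITSN libraries (red, upper points of each row) and the 3 DMSO libraries (blue, lower points), grouped by role, with DMSO 1 as open circles. Fibrillar collagens other than Col5a1, proteoglycans, Postn, Tnc and Thbs2 are lower in DMSO 1 than in any other library by a wide margin, whereas Col4a1 and Col4a2 are lowest in DMSO 1 by a small margin and Lama5, Lamb1 and Lamc1 are not lowest there.

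With all 6 libraries, limma called 0 of the 41 matrix genes at an adjusted p under 0.05, where 0.0571% of all tested genes were called. At an unadjusted p under 0.05 there were 10 matrix genes, against 20.9% of all genes. The log2 change was above 0 for 36 of the 41, against 64.0% of all tested genes, with a median of 0.32 against 0.085. After trimmed-mean scaling these counts were 33 of the 41 and 51.9%, limma called 0.343% of all genes and 0 matrix genes, and the genes called were 27 higher and 15 lower, against 6 higher and 1 lower without that scaling. Without DMSO 1 the median over the matrix genes was 0.072, against 0.027 for all genes, and 27 of the 41 were above 0, against 54.5% of all genes. In that fit limma called 4 matrix genes, Lama5, Hspg2, Plod3 and Loxl3, all of them higher in ITSN, where 3.35% of all genes were called higher. No matrix gene was called lower there by limma, where 2.15% of all genes were, and Postn and Lum alone had a negative change with an unadjusted p under 0.05. Leaving out DMSO 1 moved the count over all tested genes in the same way, to 673 genes against 7 with all 6 libraries, and none of the 4 calls was made when any other single library was left out.

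**Figure D2:**
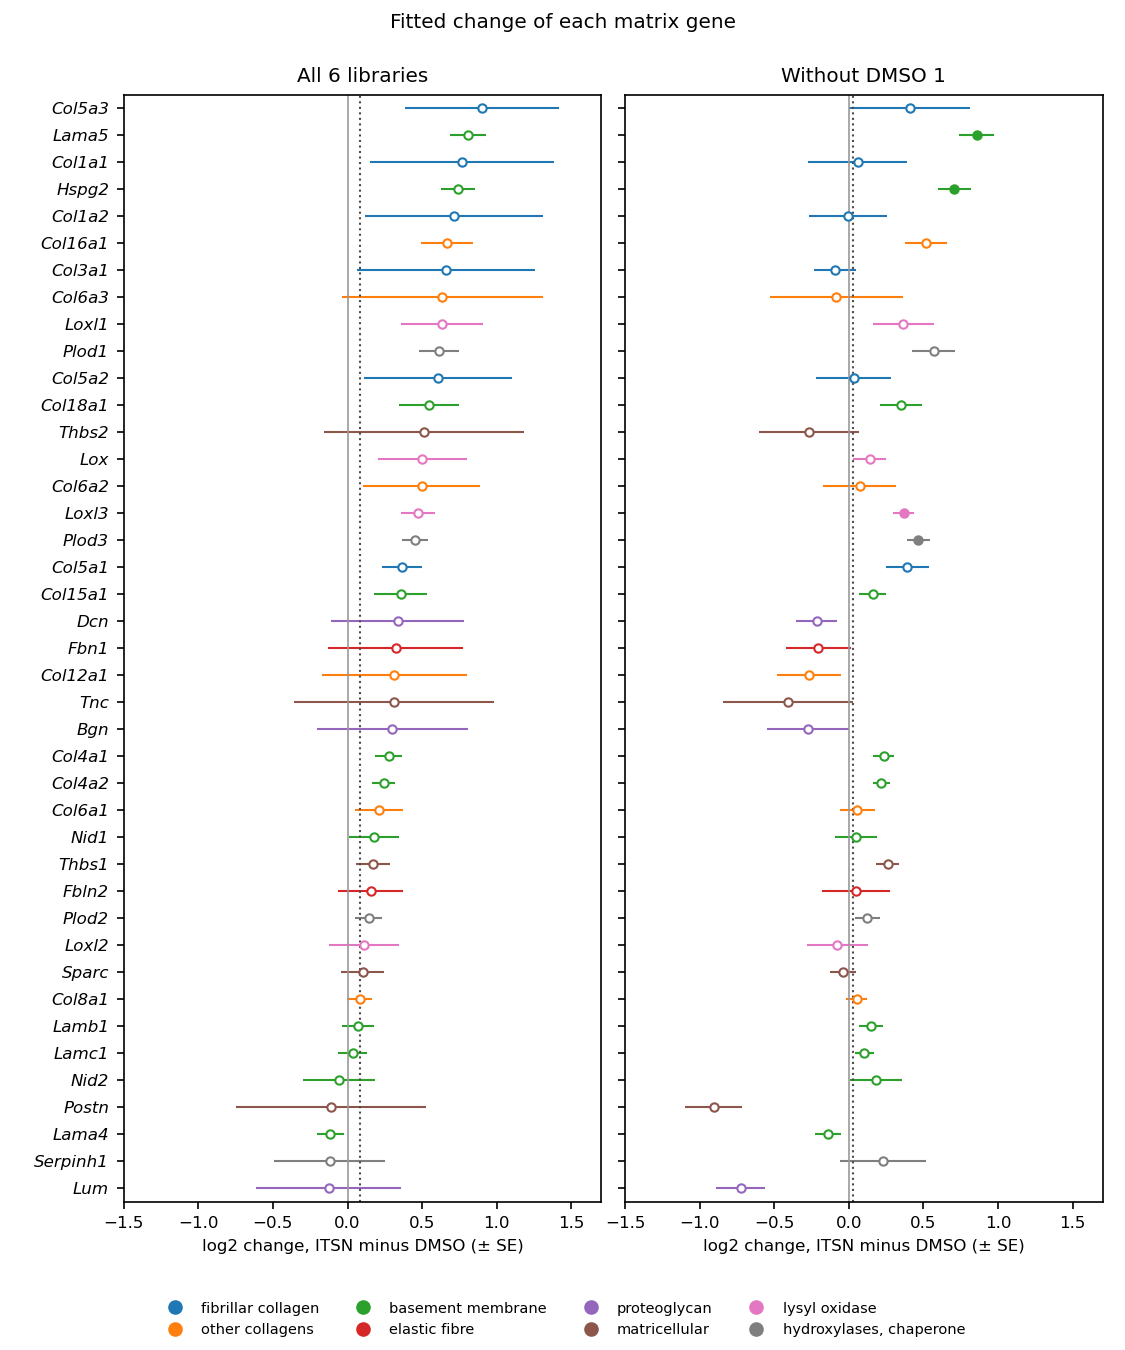
Fitted log2 change (ITSN minus DMSO, with its SE) of each matrix gene with all 6 libraries (left) and without DMSO 1 (right), coloured by role, filled where limma's adjusted p is under 0.05 and with the median of all tested genes as a dotted line. Col1a1, Col3a1, Thbs2 and Tnc have wide intervals on the left and lie near or below 0 on the right, whereas Lama5, Hspg2, Plod3 and Loxl3 keep their place.

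Fibrillar collagens form the tensile fibres of connective tissue, and most of their genes differed more within a group than between groups. Col1a1, which encodes the α1 chain of collagen I, was at 63.8, 38.0 and 85.1 FPKM in ITSN 1, 2 and 3, against 12.3, 48.3 and 66.4 FPKM in DMSO 1, 2 and 3. Its partner Col1a2, the α2 chain, was at 24.8, 16.7 and 31.1 FPKM in ITSN 1, 2 and 3, against 4.54, 20.2 and 27.3 FPKM in DMSO 1, 2 and 3. In both genes DMSO 1 was the lowest of the 6 libraries by a wide margin, ITSN 3 was the highest, and the ITSN values lay on both sides of DMSO 2 and 3. The log2 change of Col1a1 was 0.77 (limma adjusted p = 0.53, SE 0.62), with a 95% interval from -0.70 to 2.24. Without DMSO 1 it was 0.061 (limma adjusted p = 0.92, SE 0.33), and that of Col1a2 was -0.0028 (limma adjusted p = 0.995, SE 0.26). Col3a1, the single chain of collagen III, stood at 46.2, 41.8 and 50.1 FPKM in ITSN 1, 2 and 3, against 9.43, 42.5 and 56.7 FPKM in DMSO 1, 2 and 3. Here ITSN 2 lay near the other ITSN libraries, and all 3 ITSN values stood within the range of DMSO 2 and 3 or just below it. Its log2 change was 0.66 (limma adjusted p = 0.58, SE 0.60) with all libraries and -0.094 (limma adjusted p = 0.69, SE 0.14) without DMSO 1.

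Collagen V sets the diameter of collagen I fibres, and the genes of its 3 chains had different patterns. Col5a2 was at 21.8, 14.8 and 27.1 FPKM in ITSN 1, 2 and 3, against 5.40, 17.4 and 23.4 FPKM in DMSO 1, 2 and 3, the pattern of collagen I. Col5a3, the least abundant chain, was at 10.5, 4.75 and 14.6 FPKM in ITSN 1, 2 and 3, against 1.72, 5.73 and 7.60 FPKM in DMSO 1, 2 and 3, and its log2 change was 0.90 (limma adjusted p = 0.37, SE 0.52). Without DMSO 1 that change was 0.41 (limma adjusted p = 0.55, SE 0.40). By contrast Col5a1 was at 16.3, 12.7 and 18.2 FPKM in ITSN 1, 2 and 3, against 12.3, 11.7 and 11.6 FPKM in DMSO 1, 2 and 3. DMSO 1 was not low for this chain, the DMSO values were close together, and the groups did not overlap, with ITSN higher. The log2 change of Col5a1 was 0.37 (limma adjusted p = 0.19, SE 0.14) with all libraries and 0.39 (limma adjusted p = 0.14, SE 0.14) without DMSO 1.

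Among the other collagens, the 3 chains of collagen VI, which forms beaded filaments around cells, also differed in pattern. Col6a3 was at 19.5, 8.64 and 28.0 FPKM in ITSN 1, 2 and 3, against 3.24, 15.4 and 21.0 FPKM in DMSO 1, 2 and 3. Col6a2 was at 9.42, 6.43 and 11.7 FPKM in ITSN 1, 2 and 3, against 2.91, 7.13 and 9.99 FPKM in DMSO 1, 2 and 3. Col6a1 was at 33.7, 29.3 and 36.9 FPKM in ITSN 1, 2 and 3, against 22.9, 29.7 and 34.1 FPKM in DMSO 1, 2 and 3. DMSO 1 was thus far lower for Col6a3, at 0.178 of the mean of DMSO 2 and 3, less so for Col6a2 at 0.340, and least for Col6a1 at 0.718. Their log2 changes without DMSO 1 were -0.085, 0.072 and 0.058, with limma adjusted p from 0.78 to 0.92. Col12a1, a fibre-associated collagen, was at 31.1, 23.1 and 37.5 FPKM in ITSN 1, 2 and 3, against 10.2, 31.8 and 41.5 FPKM in DMSO 1, 2 and 3, and its log2 change was 0.31 (limma adjusted p = 0.76, SE 0.49) with all libraries and -0.27 (limma adjusted p = 0.45, SE 0.21) without DMSO 1. Col8a1, a short-chain network collagen, varied little, at 29.8, 27.6 and 30.3 FPKM in ITSN 1, 2 and 3, against 26.3, 28.2 and 28.1 FPKM in DMSO 1, 2 and 3. Col16a1, another fibre-associated collagen, was at 16.2, 13.9 and 19.2 FPKM in ITSN 1, 2 and 3, against 7.92, 10.3 and 11.9 FPKM in DMSO 1, 2 and 3. The groups did not overlap for Col16a1, and its log2 change was 0.67 (limma adjusted p = 0.11, SE 0.17) with all libraries and 0.52 (limma adjusted p = 0.079, SE 0.14) without DMSO 1.

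Basement membrane genes were steadier between libraries, and Lama5 and Hspg2 among them passed without DMSO 1. Lama5 encodes the α5 chain of laminin, the main α chain of adult epithelial and vascular basement membranes. It lies on the minus strand of chromosome 2 at 180176373 to 180225859 in mm10 and was at 69.9, 60.6 and 79.4 FPKM in ITSN 1, 2 and 3, against 42.1, 38.4 and 37.6 FPKM in DMSO 1, 2 and 3. All 3 ITSN values were above all 3 DMSO values, and the DMSO values were close together. The mean was 70.0 ± 9.40 FPKM in ITSN and 39.4 ± 2.42 FPKM in DMSO (SD, n = 3 each). Its log2 change was 0.81 (limma adjusted p = 0.068, SE 0.12) with all libraries, which did not pass, and 0.86 (limma adjusted p = 0.034, SE 0.12) without DMSO 1, which did.

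Hspg2 encodes perlecan, the heparan sulfate proteoglycan that links laminin and collagen IV networks, and lies on the plus strand of chromosome 4 at 137468769 to 137570630. It was at 57.7, 50.6 and 65.0 FPKM in ITSN 1, 2 and 3, against 32.4, 34.2 and 35.5 FPKM in DMSO 1, 2 and 3. Again every ITSN library was above every DMSO library, with ITSN 2 the lowest and ITSN 3 the highest of its group. The mean was 57.8 ± 7.20 FPKM in ITSN and 34.0 ± 1.57 FPKM in DMSO (SD, n = 3 each), and the log2 change was 0.74 (limma adjusted p = 0.068, SE 0.11), or 0.71 (limma adjusted p = 0.039, SE 0.11) without DMSO 1.

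The partners of Lama5 in the laminin trimer differed between the groups by less than the spread of the libraries. Lamb1, the β1 chain, was at 87.6, 82.9 and 94.2 FPKM in ITSN 1, 2 and 3, against 93.2, 82.4 and 76.7 FPKM in DMSO 1, 2 and 3. Lamc1, the γ1 chain, was at 65.2, 62.6 and 66.6 FPKM in ITSN 1, 2 and 3, against 69.7, 62.0 and 58.4 FPKM in DMSO 1, 2 and 3. For both chains DMSO 1 was the highest or second highest library, and the groups overlapped. Their log2 changes were 0.071 (limma adjusted p = 0.75, SE 0.11) and 0.035 (limma adjusted p = 0.87, SE 0.10), with a 95% interval for Lamc1 from -0.20 to 0.27. After trimmed-mean scaling both estimates lay below 0, at -0.019 and -0.056. Lama4, the α chain typical of vessel walls and muscle, was low, at 3.28, 3.58 and 3.46 FPKM in the ITSN libraries, against 3.65, 3.75 and 4.04 FPKM in the DMSO libraries, and was the single matrix gene whose ITSN values all lay below its DMSO values. Its log2 change was -0.12 (limma adjusted p = 0.52, SE 0.090), and groups with ITSN below were seen in 7.37% of all tested genes.

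Col4a1 and Col4a2, which encode the chains of the collagen IV trimer and start head to head on chromosome 8, had small and similar log2 changes. Col4a1 was at 59.1, 58.0 and 57.3 FPKM in ITSN 1, 2 and 3, against 45.1, 46.9 and 51.8 FPKM in DMSO 1, 2 and 3. Col4a2 was at 40.5, 40.9 and 40.5 FPKM in ITSN 1, 2 and 3, against 33.0, 34.4 and 35.1 FPKM in DMSO 1, 2 and 3. The ITSN values were tightly grouped and all above the DMSO values in both genes. Their log2 changes were 0.27 (limma adjusted p = 0.15, SE 0.088) and 0.24 (limma adjusted p = 0.15, SE 0.077), and neither passed without DMSO 1 (limma adjusted p = 0.094 and 0.077). Col18a1, the source of the fragment endostatin, was at 58.9, 49.4 and 66.3 FPKM in ITSN 1, 2 and 3, against 29.7, 41.5 and 49.0 FPKM in DMSO 1, 2 and 3. Its relative Col15a1 was at 8.62, 8.94 and 9.80 FPKM in ITSN 1, 2 and 3, against 5.01, 7.57 and 8.55 FPKM in DMSO 1, 2 and 3. Groups did not overlap for either, yet the limma adjusted p was 0.19 and 0.31. The log2 changes of Col18a1 and Col15a1 were 0.55 and 0.36 with all libraries. Without DMSO 1 they were 0.35 and 0.16 (limma adjusted p = 0.16 and 0.30). The nidogens, which bridge laminin and collagen IV, had opposite patterns. Nid1 was at 8.48, 6.98 and 9.49 FPKM in the ITSN libraries, against 5.78, 7.25 and 8.76 FPKM in the DMSO libraries. Nid2 was at 3.38, 4.58 and 3.14 FPKM in the ITSN libraries, against 5.73, 3.68 and 2.6 FPKM in the DMSO libraries. Nid2 was highest in DMSO 1 and ITSN 2, the libraries in which most matrix genes were lowest. The exons of Nid2 share 437 bases (8.45%) with those of Rtraf on the opposite strand, so its value is uncertain. In all, groups with every ITSN value above every DMSO value were found in 11 of the 41 genes (26.8%), a share near the 21.8% of all tested genes. Of these 11, 6 were basement membrane genes, a number not set against other genes of like GC content. The longest transcripts of the basement membrane genes had a median GC of 56.4%, against 48.6% for all tested genes. Log2 changes rose with GC, as described below.

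Fbn1 and the proteoglycan genes were low in DMSO 1, as collagen I was, and Fbln2 was less so. Fbn1, which encodes the microfibril protein fibrillin 1, was at 8.38, 5.87 and 9.95 FPKM in ITSN 1, 2 and 3, against 2.43, 7.97 and 10.7 FPKM in DMSO 1, 2 and 3. The exons of Fbn1 overlap Gm9913 on the opposite strand by 20.1% of their bases, so its value is uncertain. Fbln2, fibulin 2 of microfibrils and vessel walls, was at 18.4, 13.6 and 24.9 FPKM in ITSN 1, 2 and 3, against 14.1, 17.4 and 18.2 FPKM in DMSO 1, 2 and 3. The small leucine-rich proteoglycans bind collagen fibres. Bgn (biglycan) was at 12.7, 7.81 and 15.6 FPKM in ITSN 1, 2 and 3, against 3.60, 12.4 and 16.4 FPKM in DMSO 1, 2 and 3. Dcn (decorin) was at 4.58, 4.06 and 4.28 FPKM in ITSN 1, 2 and 3, against 0.953, 4.33 and 6.11 FPKM in DMSO 1, 2 and 3. Each of these was lowest or, for Fbln2, close to lowest in DMSO 1, and limma called none of them, with adjusted p from 0.72 to 0.78. Without DMSO 1 the log2 changes of Fbn1, Fbln2, Bgn and Dcn were -0.20, 0.049, -0.28 and -0.22, with limma adjusted p from 0.35 to 0.91. Lum (lumican) was at 4.25, 3.80 and 4.89 FPKM in ITSN 1, 2 and 3, against 1.52, 6.44 and 9.28 FPKM in DMSO 1, 2 and 3. Its ITSN values lay between DMSO 1 and the other DMSO libraries, and the log2 change was -0.13 (limma adjusted p = 0.91, SE 0.48) with all libraries and -0.72 (limma adjusted p = 0.057, SE 0.16) without DMSO 1.

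Matricellular proteins signal to cells and are strongly induced in wounds and tumour stroma, and Postn had the lowest log2 change of the 41 genes once DMSO 1 was left out. Postn, which encodes periostin, was at 17.7, 13.4 and 19.5 FPKM in ITSN 1, 2 and 3, against 5.34, 27.5 and 37.4 FPKM in DMSO 1, 2 and 3. The ITSN values were above DMSO 1 and below DMSO 2 and 3. Without DMSO 1 the log2 change of Postn was -0.91 (limma adjusted p = 0.051, SE 0.19), and it passed when trimmed-mean scaling was added (log2 change -0.93, adjusted p = 0.040), as Lum did (log2 change -0.75, adjusted p = 0.044), where 3.77% of all tested genes were called lower and 3.88% higher. With all 6 libraries it was -0.11 (limma adjusted p = 0.94, SE 0.64), with a 95% interval from -1.63 to 1.41. Groups with ITSN below DMSO 2 and 3 were common, in 20.6% of all tested genes and in 3 of the 41 matrix genes, Postn, Lum and Lama4.

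Tnc (tenascin C) was at 43.6, 20.3 and 61.7 FPKM in ITSN 1, 2 and 3, against 10.6, 44.0 and 58.5 FPKM in DMSO 1, 2 and 3. Thbs2 (thrombospondin 2) was at 31.0, 17.7 and 41.2 FPKM in ITSN 1, 2 and 3, against 5.97, 29.9 and 39.4 FPKM in DMSO 1, 2 and 3. Both followed collagen I, with low values in DMSO 1 and in ITSN 2. Their log2 changes without DMSO 1 were -0.41 (limma adjusted p = 0.58, SE 0.44) and -0.27 (limma adjusted p = 0.64, SE 0.34). Thbs1 (thrombospondin 1, an activator of latent TGF-β) did not follow its relative. It was at 50.1, 52.1 and 46.8 FPKM in ITSN 1, 2 and 3, against 50.0, 43.0 and 39.5 FPKM in DMSO 1, 2 and 3, with DMSO 1 the highest DMSO library, and its fitted log2 change was 0.17 (limma adjusted p = 0.43, SE 0.11). Sparc (osteonectin, a collagen-binding glycoprotein) was abundant, at 69.0, 64.3 and 73.8 FPKM in ITSN 1, 2 and 3, against 52.6, 67.7 and 74.3 FPKM in DMSO 1, 2 and 3. It too was lowest in DMSO 1, by less, at 0.741 of the mean of DMSO 2 and 3.

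**Figure D3:**
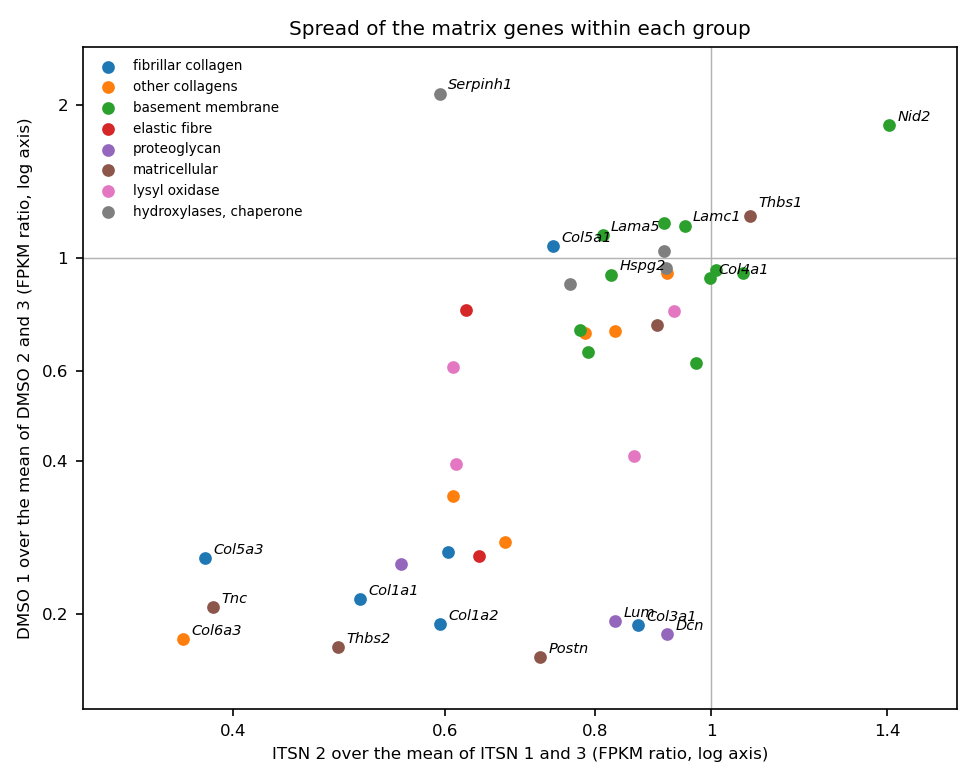
For each matrix gene, ITSN 2 as a ratio of the mean of ITSN 1 and 3 (horizontal, log axis) against DMSO 1 as a ratio of the mean of DMSO 2 and 3 (vertical, log axis), coloured by role, with lines at a ratio of 1. Col6a3, Tnc, Thbs2 and Col1a1 are low in both libraries, Postn, Lum, Col3a1 and Dcn mainly in DMSO 1, and laminin and collagen IV genes lie near 1.

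How low DMSO 1 and ITSN 2 were was not the same for all of these genes. In DMSO 1 the lowest ratios to the mean of DMSO 2 and 3 were 0.165 for Postn, 0.172 for Thbs2, 0.178 for Col6a3 and 0.183 for Dcn, with 0.214 for Col1a1, where the median of all tested genes was 0.855. In ITSN 2 the ratio to the mean of ITSN 1 and 3 was 0.364 for Col6a3, 0.379 for Col5a3 and 0.385 for Tnc, but 0.918 for Dcn and 0.869 for Col3a1, where the median of all genes was 0.976. Col3a1 and Dcn were thus low in DMSO 1 and not in ITSN 2, whereas Col6a3, Col5a3 and Tnc were low in both.

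The DNA just before the start of a few of these genes is shown because they stand for the 2 patterns: Col3a1 and Thbs2 for genes low in DMSO 1, and Lama5 and Hspg2 for genes called higher in ITSN without it. The sequences are from RefSeq (GRCm38.p6, the assembly of mm10), 5′ to 3′ on the gene's strand, and end at the base before the start of the gene in the table, so that Hspg2 has 216 bases and the others 250. They lie at chr1:45311288-45311537 (Col3a1, plus strand), chr17:14694263-14694512 (Thbs2, minus strand), chr2:180225860-180226109 (Lama5, minus strand) and chr4:137468553-137468768 (Hspg2, plus strand). Capitals mark matches to 4 motifs, each read as written and as its reverse complement. The first is CCAAT, the box read by NF-Y. The second is GGGCGG, the GC box read by Sp proteins. The third is TATAAA, found ahead of many regulated genes. The fourth is CAGAC, a core bound by Smad proteins. No motif overlapped another in these windows.
Col3a1: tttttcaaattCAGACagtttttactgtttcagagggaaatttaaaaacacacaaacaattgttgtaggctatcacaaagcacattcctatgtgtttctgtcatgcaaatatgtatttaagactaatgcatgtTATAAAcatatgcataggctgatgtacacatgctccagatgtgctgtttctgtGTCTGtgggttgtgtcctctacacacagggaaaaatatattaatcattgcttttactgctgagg
Thbs2: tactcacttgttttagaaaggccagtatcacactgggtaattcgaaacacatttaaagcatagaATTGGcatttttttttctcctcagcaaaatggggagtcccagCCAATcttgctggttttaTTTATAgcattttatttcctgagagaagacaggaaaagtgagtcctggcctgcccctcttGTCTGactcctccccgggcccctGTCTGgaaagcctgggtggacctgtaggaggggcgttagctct
Lama5: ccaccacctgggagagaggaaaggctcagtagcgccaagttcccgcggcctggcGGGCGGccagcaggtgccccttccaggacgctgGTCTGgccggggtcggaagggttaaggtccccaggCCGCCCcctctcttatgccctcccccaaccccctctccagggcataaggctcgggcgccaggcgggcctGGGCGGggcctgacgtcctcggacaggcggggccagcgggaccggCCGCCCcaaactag
Hspg2: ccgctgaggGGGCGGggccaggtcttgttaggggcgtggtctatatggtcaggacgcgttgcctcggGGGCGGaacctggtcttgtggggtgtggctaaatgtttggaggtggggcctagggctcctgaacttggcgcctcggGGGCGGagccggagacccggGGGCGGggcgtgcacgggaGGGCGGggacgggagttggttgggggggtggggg
These windows were AT-rich or mixed in the first pair, at 35.2% GC in Col3a1 and 46.8% in Thbs2, and GC-rich in the second, at 72.4% in Lama5 and 70.8% in Hspg2. The GC box occurred 4 times in the Lama5 window and 5 times in the Hspg2 window. Neither the Col3a1 nor the Thbs2 window held it, and both held 1 match to the third motif and 2 Smad cores, with 2 NF-Y boxes in Thbs2. Lama5 also held 1 Smad core, and Hspg2 held none. Of 32851 RefSeq promoter windows of 250 bases, 32.7% held the GC box, 33.8% the NF-Y box, 12.4% the third motif and 42.2% the Smad core. Promoter windows were found for 27 of the 41 genes, of which 18 held the GC box, 10 the NF-Y box, 5 the third motif and 16 the Smad core. A gene was counted here if any of its windows held the motif, whereas the percentages are shares of single windows. The counts and the percentages are therefore not comparable. These matches describe the letters of each window.

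Lysyl oxidases form the covalent cross-links of collagen and elastin, and the 4 members read here differed in level and in spread. Lox itself was at 9.92, 8.78 and 10.5 FPKM in ITSN 1, 2 and 3, against 3.58, 7.96 and 9.52 FPKM in DMSO 1, 2 and 3. The related Loxl1 was at 3.56, 2.47 and 4.48 FPKM in ITSN 1, 2 and 3, against 0.967, 2.16 and 2.74 FPKM in DMSO 1, 2 and 3. Both were low in DMSO 1, at 0.409 and 0.395 of the mean of DMSO 2 and 3. Loxl2, which acts on basement membrane collagen, was at 5.06, 3.44 and 6.24 FPKM in ITSN 1, 2 and 3, against 3.13, 4.84 and 5.41 FPKM in DMSO 1, 2 and 3, with low values in ITSN 2 and DMSO 1. Their log2 changes were 0.50 for Lox, 0.63 for Loxl1 and 0.11 for Loxl2, with limma adjusted p from 0.25 to 0.83. Without DMSO 1 they were 0.14, 0.36 and -0.077 (limma adjusted p = 0.44, 0.29 and 0.84).

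Loxl3 was the cross-linking enzyme that passed without DMSO 1. It lies on the plus strand of chromosome 6 at 83034173 to 83052562 and was at 15.1, 14.3 and 15.6 FPKM in ITSN 1, 2 and 3, against 8.96, 11.2 and 11.5 FPKM in DMSO 1, 2 and 3. The 3 ITSN libraries were close together and all above the 3 DMSO libraries. The mean was 15.0 ± 0.675 FPKM in ITSN and 10.6 ± 1.41 FPKM in DMSO (SD, n = 3 each), and the log2 change was 0.47 (limma adjusted p = 0.10, SE 0.11), or 0.37 (limma adjusted p = 0.048, SE 0.072) without DMSO 1. Its exons share 535 bases (11.6% of its exon bases) with those of Htra2 on the opposite strand, and the sources used here do not say whether strand was used in counting, so the value of Loxl3 is uncertain.

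Collagen chains are hydroxylated on lysine by the Plod enzymes before they leave the cell. Plod3, the hydroxylase that also adds sugars to hydroxylysine, lies on the plus strand of chromosome 5 at 136987019 to 136996648 and was at 15.7, 14.4 and 15.9 FPKM in ITSN 1, 2 and 3, against 11.2, 11.2 and 10.5 FPKM in DMSO 1, 2 and 3. DMSO 1 did not stand apart for this gene, and the groups did not overlap. The mean was 15.4 ± 0.795 FPKM in ITSN and 11 ± 0.398 FPKM in DMSO (SD, n = 3 each). Its log2 change was 0.45 (limma adjusted p = 0.076, SE 0.085) and, without DMSO 1, 0.47 (limma adjusted p = 0.041, SE 0.077). The exons of Plod3 share 529 bases (11.7%) with those of Znhit1 on the opposite strand, so this value is uncertain too.

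Plod1, which hydroxylates lysines of the triple helix, was at 8.55, 6.87 and 9.45 FPKM in ITSN 1, 2 and 3, against 4.67, 4.78 and 5.71 FPKM in DMSO 1, 2 and 3. The groups did not overlap, with a log2 change of 0.61 (limma adjusted p = 0.091, SE 0.14), and it did not pass without DMSO 1 (adjusted p = 0.069). Plod2, which hydroxylates the telopeptides at the ends of the chains, was at 24, 22.6 and 25.2 FPKM in ITSN 1, 2 and 3, against 21.0, 23.2 and 20.6 FPKM in DMSO 1, 2 and 3, a log2 change of 0.14 (limma adjusted p = 0.42, SE 0.090). Serpinh1 encodes HSP47, the chaperone of procollagen, and went with none of the collagens. It was at 54.4, 25.7 and 32.2 FPKM in ITSN 1, 2 and 3, against 63.7, 31.1 and 29.4 FPKM in DMSO 1, 2 and 3. The high values were in ITSN 1 and DMSO 1, the other 4 libraries lay close together, and the log2 change was -0.12 (limma adjusted p = 0.89, SE 0.37), or 0.23 (limma adjusted p = 0.64, SE 0.29) without DMSO 1.

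Ratios between genes of the same library do not depend on how libraries are scaled. The ratio of Col1a1 to Col1a2, the partners in collagen I, was 2.57, 2.28 and 2.74 in ITSN 1, 2 and 3, against 2.70, 2.39 and 2.43 in DMSO 1, 2 and 3. That of Col4a1 to Col4a2 was 1.46, 1.42 and 1.42 in ITSN 1, 2 and 3, against 1.37, 1.36 and 1.48 in DMSO 1, 2 and 3, and that of Lamb1 to Lamc1 1.34, 1.33 and 1.41 in ITSN 1, 2 and 3, against 1.34, 1.33 and 1.31 in DMSO 1, 2 and 3. These pairs of one trimer kept nearly the same ratio in every library, DMSO 1 included, where collagen I itself was low. The ratio of Lama5 to Lamc1 was 1.07, 0.969 and 1.19 in ITSN 1, 2 and 3, against 0.604, 0.620 and 0.643 in DMSO 1, 2 and 3, so the α5 chain stood higher against the γ1 chain in every ITSN library. Hspg2 to Lamc1 gave 0.885, 0.809 and 0.977 in ITSN 1, 2 and 3, against 0.464, 0.552 and 0.608 in DMSO 1, 2 and 3, again without overlap. The longest transcripts of Lama5 and Hspg2 have 59.9% and 60.9% GC and that of Lamc1 53.0%, and the ratios were not corrected for GC. The ratio of Col6a3 to Col6a1 was 0.577, 0.294 and 0.760 in ITSN 1, 2 and 3, against 0.142, 0.518 and 0.614 in DMSO 1, 2 and 3, and varied with the library and not with the group. No test was run on these ratios, since the genes in them were chosen with their values known.

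**Figure D4:**
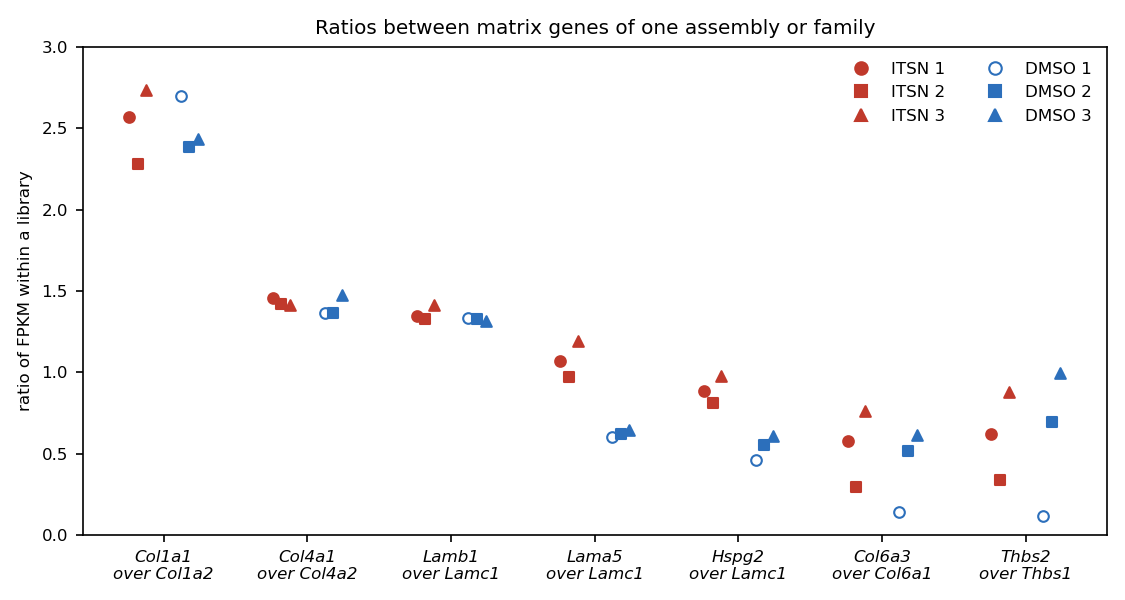
Ratio of FPKM between 2 matrix genes within each library, for the 3 ITSN libraries (red, left of each pair) and the 3 DMSO libraries (blue, right of each pair, DMSO 1 as open circles). The ratios of Col1a1 to Col1a2, Col4a1 to Col4a2 and Lamb1 to Lamc1 overlap between groups, whereas Lama5 to Lamc1 and Hspg2 to Lamc1 are higher in all ITSN libraries. The ratios are not corrected for GC content.

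The fitted changes also moved with the GC content of the transcripts. In the top decile of all tested genes by GC, from 57.3% upward, the median log2 change without DMSO 1 was 0.33, and in the bottom decile it was -0.12. The matrix genes had a median GC of 53.0%, against 48.6% for all tested genes, and 11 of the 41 lay in the top decile. Lama5 and Hspg2 were among them, at 59.9% and 60.9% GC, and Plod3 and Col16a1 too, at 57.8% and 61.4%. Postn, Dcn and Lum were low in GC, at 36.3%, 37.4% and 41.9%.

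After the dependence on GC had been removed within each library, no matrix gene passed with or without DMSO 1. Of all genes, 0.0654% passed with all libraries and 0.482% without DMSO 1. The log2 change of Lama5 was then 0.39 (limma adjusted p = 0.27, SE 0.13) with all libraries and 0.52 (limma adjusted p = 0.059, SE 0.077) without DMSO 1. Hspg2 had 0.30 (limma adjusted p = 0.21, SE 0.075) and 0.34 (limma adjusted p = 0.071, SE 0.063). For Plod3 the values were 0.10 and 0.20, and for Loxl3 0.27 and 0.24. Plod1, at 52.7% GC, kept 0.43 and 0.46. Postn without DMSO 1 stood at -0.78 (limma adjusted p = 0.12, SE 0.21) and Lum at -0.62 (limma adjusted p = 0.12, SE 0.17). The estimates of Col4a1 and Col4a2 turned below 0 after removal, to -0.068 and -0.19. The median over the matrix genes was 0.13 with all libraries and -0.032 without DMSO 1. Of the 11 basement membrane genes 9 had a log2 change above 0 before removal with all libraries, with a median of 0.24. After removal 5 were above 0, against 50.4% of all genes, and their median was -0.068, or -0.012 without DMSO 1.

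**Figure D5:**
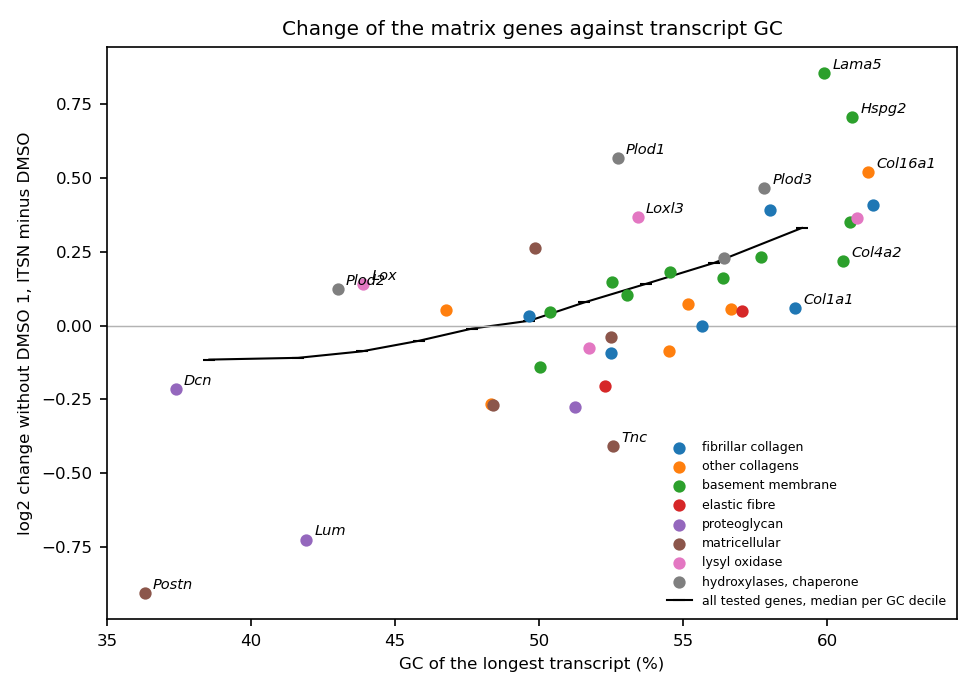
Log2 change without DMSO 1 (ITSN minus DMSO) of each matrix gene against the GC content of its longest transcript, coloured by role, with the median of all tested genes in each GC decile as a black line. Lama5, Hspg2, Plod1, Plod3 and Loxl3 lie above the line, and Postn, Lum and Tnc lie below it.

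Other genes of matrix assembly and sensing were read from lists of related genes, and limma called none of them with all 6 libraries (0.0571% of all tested genes were called). Over all tested genes, 64.0% had a log2 change above 0, or 51.9% after trimmed-mean scaling, and 5.49% were called without DMSO 1. Of 28 other collagen genes 3 were tested, all with a log2 change above 0, and the largest change was in Col7a1, the anchoring fibril collagen under epithelium. Col7a1 was at 35.9, 26.5 and 43.2 FPKM in ITSN 1, 2 and 3, against 23.0, 19.3 and 17 FPKM in DMSO 1, 2 and 3, without overlap of the groups, with a log2 change of 0.79 (limma adjusted p = 0.10, SE 0.19), or 0.90 (limma adjusted p = 0.055, SE 0.20) without DMSO 1. The others tested were Col4a5, with 0.14 (limma adjusted p = 0.65, SE 0.15), and Col14a1, with 0.20 (limma adjusted p = 0.67, SE 0.23). Of 22 tested collagen processing and folding genes 16 had a log2 change above 0, with a median of 0.16. After trimmed-mean scaling 14 were above 0, with a median of 0.10. Of the 22, 1 passed without DMSO 1, a share near that of all genes. That gene was Bmp1, the procollagen C-proteinase, at 35.2 ± 3.86 FPKM in ITSN and 24.4 ± 0.563 FPKM in DMSO (SD, n = 3 each), with a log2 change of 0.49 (limma adjusted p = 0.049, SE 0.10) in that fit. The procollagen N-proteinase gene Adamts14 had 0.66 (limma adjusted p = 0.076, SE 0.12) with all libraries, and Fkbp7, a prolyl isomerase of the endoplasmic reticulum, had -0.32 (limma adjusted p = 0.15, SE 0.10). After removal of the GC trend, with all libraries, the log2 change was 0.32 for Col7a1, 0.26 for Adamts14 and -0.26 for Fkbp7 (limma adjusted p = 0.53, 0.31 and 0.25).

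Of 26 tested other matrix proteins 19 had a log2 change above 0, with a median of 0.11, against 64.0% of all tested genes. After trimmed-mean scaling 15 were above 0, against 51.9% of all, with a median of 0.058. Of the 26, 4 passed without DMSO 1, where 5.49% of all genes did. Agrn (agrin, a heparan sulfate proteoglycan of basement membranes like perlecan) was at 24.1, 22.0 and 29.3 FPKM in ITSN 1, 2 and 3, against 16.3, 16.1 and 16 FPKM in DMSO 1, 2 and 3. Without DMSO 1 limma gave log2 changes of 0.61 (limma adjusted p = 0.049, SE 0.12) for Agrn, 0.91 (limma adjusted p = 0.034, SE 0.12) for Ecm1 and 0.45 (limma adjusted p = 0.049, SE 0.090) for the laminin β2 chain Lamb2. The fourth, Aspn (asporin, a proteoglycan related to decorin and lumican), fell, at 2.69, 2.62 and 3.15 FPKM in ITSN 1, 2 and 3, against 1.20, 7.10 and 11 FPKM in DMSO 1, 2 and 3, with a log2 change of -1.37 (limma adjusted p = 0.034, SE 0.18) without DMSO 1 and -0.65 (limma adjusted p = 0.58, SE 0.58) with it. Its ITSN values were below DMSO 2 and 3 and above DMSO 1, as for Postn and Lum. Of 21 tested receptors 10 had a log2 change above 0 and 11 below, against 64.0% of all genes above 0. After trimmed-mean scaling 9 were above 0, with a median of -0.091. The collagen uptake receptor Mrc2 had 0.45 (limma adjusted p = 0.20, SE 0.17). The laminin receptor subunits Itga3 and Itgb4, 2 of the 21, passed without DMSO 1. Itga3 was at 127, 124 and 131 FPKM in ITSN 1, 2 and 3, against 82.9, 90.0 and 94.9 FPKM in DMSO 1, 2 and 3. Itgb4 was at 39.4, 38.4 and 39.2 FPKM in ITSN 1, 2 and 3, against 29.6, 26.2 and 25.2 FPKM in DMSO 1, 2 and 3. Their log2 changes were 0.46 (limma adjusted p = 0.035, SE 0.065) and 0.58 (limma adjusted p = 0.024, SE 0.061) in that fit. After removal of the GC trend, with all libraries, the log2 change was 0.16 for Itga3 and 0.10 for Itgb4, against 0.51 and 0.52 before removal. In the same fit it was 0.30 for Agrn, 0.42 for Ecm1, 0.20 for Bmp1 and -0.54 for Aspn. The estimate of Lamb2 turned below 0, to -0.012, against 0.37 before removal.

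Markers of the cells that make matrix were read in the same libraries. Of 10 fibroblast markers 7 were listed, with a summed level of 70.9, 65.0 and 74.7 FPKM in ITSN 1, 2 and 3, against 45.3, 61.4 and 70.3 FPKM in DMSO 1, 2 and 3. Gsn made the largest part of these sums, at 42.6, 38.7 and 44.4 FPKM in the ITSN libraries, against 21.3, 34.5 and 40.9 FPKM in the DMSO libraries. The 7 markers did not follow one pattern. Pdgfrb was at 6.42, 4.49 and 7.73 FPKM in the ITSN libraries, against 2.00, 5.27 and 7.21 FPKM in the DMSO libraries, lowest in DMSO 1, and so was Thy1. Thy1 was at 9.74, 6.44 and 12.9 FPKM in the ITSN libraries, against 3.01, 8.28 and 11.2 FPKM in the DMSO libraries. Pdgfra was at 8.35, 10.7 and 6.38 FPKM in the ITSN libraries, against 14.8, 9.35 and 6.82 FPKM in the DMSO libraries, and was highest in DMSO 1. Cd34 was highest there too, at 2.81 FPKM, whereas Gsn and Fap were lowest there. Pi16 was under 1 FPKM in every library. The fibroblast markers Dpt, Clec3b and Tcf21 were not among the listed genes. The sum of the 7 macrophage markers was 509, 503 and 527 FPKM in ITSN 1, 2 and 3, against 192, 466 and 579.7 FPKM in DMSO 1, 2 and 3, lowest in DMSO 1 as for the collagens. The 7 listed of 8 endothelial markers summed to 24.3, 29.8 and 20.6 FPKM in ITSN 1, 2 and 3, against 35.9, 28.0 and 24.6 FPKM in DMSO 1, 2 and 3. The 4 listed of 5 neutrophil markers summed to 87.0, 108 and 64.4 FPKM in ITSN 1, 2 and 3, against 204, 112 and 70.8 FPKM in DMSO 1, 2 and 3. Both sums were highest in DMSO 1. The 8 listed of 10 epithelial markers, mostly Krt8 and Krt18, summed to 533, 527 and 558 FPKM in ITSN 1, 2 and 3, against 355, 478 and 527 FPKM in DMSO 1, 2 and 3. Of the 8, 1 passed without DMSO 1, Cldn4 (log2 change 1.17, limma adjusted p = 0.044), where 5.49% of all tested genes did. With all 6 libraries Cldn4 had 0.82 (limma adjusted p = 0.22, SE 0.33), and DMSO 1 was its highest DMSO library, at 5.81 FPKM against 3.19 and 1.58. Without DMSO 1 Krt8 had 0.073, Krt18 0.10 and Krt14 -0.45.

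Skeletal muscle, which has a basement membrane of its own, was present unevenly. Its 8 markers summed to 38.7, 81.4 and 5.75 FPKM in ITSN 1, 2 and 3, against 2.65, 8.80 and 11.6 FPKM in DMSO 1, 2 and 3, with Myh4, a fast myosin, at 9.39, 20.9 and 0.0142 FPKM in the ITSN libraries, against 0, 0 and 0.0396 FPKM in the DMSO libraries. The 5 listed smooth muscle and myofibroblast markers summed to 25.6, 21.0 and 29.6 FPKM in ITSN 1, 2 and 3, against 18.6, 20.5 and 24 FPKM in DMSO 1, 2 and 3. Des among them was at 3.32, 6.79 and 0.391 FPKM in ITSN 1, 2 and 3, in the order of the skeletal muscle sums. Acta2 was at 12.3, 7.41 and 15.4 FPKM and Tagln at 7.68, 5.06 and 10.7 FPKM in ITSN 1, 2 and 3. Both were lowest of the ITSN libraries in ITSN 2, as were Myl9 and Myh11. The 5 pericyte markers summed to 11.2, 12.1 and 9.54 FPKM in ITSN 1, 2 and 3, against 9.78, 11.7 and 13 FPKM in DMSO 1, 2 and 3. Of 5 adipocyte markers only Fabp4 was listed, at 2.77, 4.39 and 1.53 FPKM in ITSN 1, 2 and 3, against 6.28, 4.42 and 3.75 FPKM in DMSO 1, 2 and 3. ITSN 2, where the muscle markers were highest, gave the lowest ITSN value for 35 of the 41 matrix genes, Lama5 and Hspg2 among them. Over all tested genes this share was 47.3%. The part of the cell types above in the matrix values was not tested.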

How the data were processed

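Breast RNA of 3 ITSN and 3 DMSO mice was compared, grouped by the label of treatment. Total RNA was extracted with TRIzol and a spin-column kit, per the labels' protocols, and sequenced after mRNA enrichment or rRNA removal with dUTP in the second strand. The authors deposited 1 table of FPKM values (the unit is per the file headers), made on mm10, per the submitters' processing notes. The sources used here give no aligner, quantifier, annotation or strand setting. The table held 1 blank line and 0 columns of other samples. The third ITSN column bears the number in that sample's description, which differs from its title. No counts were used, the depth of each library is unknown, and low values are therefore less certain by an amount that cannot be stated.

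Genes that reached 1 FPKM in 3 or more libraries were analysed as log2(FPKM + 1) by a two-sided test in limma 3.58.1 and R 4.3.3 (lmFit, then eBayes with trend), using Benjamini-Hochberg adjustment over all tested genes and a threshold of 0.05. Every adjusted p-value is from limma, and a log2 change is on the log2(FPKM + 1) scale, which understates the change of low genes. A p-value weighs the difference between the groups against the spread within them, over the 6 samples or those left when a library is left out. Each sample is from its own mouse per the labels. Trimmed-mean scaling used the mean of log2 ratios to the average library after trimming 0.3 at each end. The GC trend was a loess fit (span 0.5) per library on the GC content of the longest GENCODE M21 transcript, known for 99.7% of the genes. Array weights were estimated gene by gene, since the default estimate did not converge. The fit was tested on simulated data. Tables were joined in Python 3.11.15 with pandas 2.3.3.

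The 42 genes and all other lists were chosen with earlier results of these data known. The genes named were all 42, the 3 genes of smallest unadjusted p and every gene that passed of each related list, and the cell type markers. Coordinates are those of the table. Of the 41 listed genes, 15 share exon bases with another gene in GENCODE M21, and 3 share over 10%: Fbn1 (20.1%), Loxl3 and Plod3.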

Additional observations from a re-analysis of the deposited data

How the results depend on the processing

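The count of 0 matrix genes called, their median log2 change (0.32) and the 36 of 41 above 0 were recomputed under each other setting. Leaving out one library at a time gave 0 to 4 matrix genes called (4 without DMSO 1), medians of 0.072 to 0.53, 27 to 38 genes above 0, and 1 to 673 genes called over the whole table. Trimmed-mean scaling called 42 genes in all and 0 matrix genes; quantile normalization called 93 and 1 (Hspg2); rescaling without mitochondrial genes called 79 and 1 (Hspg2). A filter of 5 FPKM called 19 genes among 7031 tested. Array weights called 6909 genes (56.4%) and 22 matrix genes (53.7%), with weights of 8.17 on ITSN 1 and 6.73 on DMSO 2. The other libraries had weights from 0.11 to 0.70, so that fit rested largely on ITSN 1 and DMSO 2. Without DMSO 1, trimmed-mean scaling called 937 genes (7.64%) and 6 matrix genes (14.6%). Removal of the GC trend without DMSO 1 called 59 genes (0.482%) and 0 matrix genes. In that fit 17 matrix genes (41.5%, median -0.032) were above 0, against 50.0% of all genes. A pseudocount of 0.1, no filter, limma without trend and removal of the GC trend with all libraries called 6, 7, 7 and 8 genes and 0 matrix genes. The replicate block called 2 genes and 0 matrix genes. Same-numbered libraries had residuals that correlated across genes at -0.0038, -0.14 and 0.24, not every library correlated best with its own number, and no label pairs the mice, so the numbers were not taken as pairs.

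The sign of single genes turned as follows. Log2 changes were Col8a1 -0.0053, Lamb1 -0.019 and Lamc1 -0.056 after trimmed-mean scaling. After quantile normalization they were Lamb1 -0.042, Lamc1 -0.030 and Loxl2 -0.0099. Without mitochondrial genes they were Col8a1 -0.0012, Lamb1 -0.015 and Lamc1 -0.051. With array weights they were Col12a1 -0.032, Tnc -0.035 and Serpinh1 0.66 (limma adjusted p = 0.018 for Serpinh1, where 56.4% of all genes were called). After removal of the GC trend they were Col6a1 -0.10, Col4a1 -0.068, Col4a2 -0.19, Lamb1 -0.11, Lamc1 -0.16, Fbln2 -0.17, Sparc -0.075 and Loxl2 -0.041. Without DMSO 1 and with trimmed-mean scaling they were Col1a2 -0.029, Col3a1 -0.12, Col6a3 -0.11, Col12a1 -0.29, Nid2 0.16, Fbn1 -0.23, Bgn -0.30, Dcn -0.24, Sparc -0.067, Tnc -0.43, Thbs2 -0.30, Loxl2 -0.10 and Serpinh1 0.20. Without DMSO 1 and with the GC trend removed they were Col1a1 -0.24, Col1a2 -0.20, Col3a1 -0.20, Col6a1 -0.17, Col6a2 -0.11, Col6a3 -0.25, Col12a1 -0.26, Col4a1 -0.032, Col4a2 -0.14, Col15a1 -0.062, Col18a1 -0.015, Lamc1 -0.012, Nid2 0.019, Fbn1 -0.30, Fbln2 -0.19, Bgn -0.34, Dcn -0.088, Sparc -0.14, Tnc -0.51, Thbs2 -0.27, Loxl1 -0.0084, Loxl2 -0.15 and Serpinh1 0.0060. Over the libraries left out one at a time, genes that turned ranged as follows: Col1a2 -0.0028 to 1.17, Col3a1 -0.094 to 1.14, Col6a3 -0.085 to 1.10, Col12a1 -0.27 to 0.70, Lamc1 -0.022 to 0.10, Nid2 -0.27 to 0.18, Fbn1 -0.20 to 0.68, Fbln2 -0.054 to 0.36, Bgn -0.28 to 0.68, Dcn -0.22 to 0.72, Lum -0.72 to 0.29, Sparc -0.040 to 0.21, Postn -0.91 to 0.39, Tnc -0.41 to 0.77, Thbs2 -0.27 to 1.00, Loxl2 -0.077 to 0.30 and Serpinh1 -0.42 to 0.23. The cause of these turns was not tested. Depth is unknown and sets no stated limit here.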
